A study of Mus musculus with 6 samples.

Results

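Arginine is the shared substrate of nitric oxide synthase and arginase in macrophages, and 8 genes around this branch point were followed in bone marrow-derived macrophages (BMDMs) with or without a myeloid deletion in Hnrnpd, the gene of the RNA-binding protein AUF1, which recognizes AU-rich elements. They were Slc7a2, Nos2, Gch1, Ass1, Asl, Arg1, Arg2 and Acod1, chosen by gene symbol, and all 8 were found among the 55254 symbols of the count table. The control BMDMs were hnRNPDfl/fl and the M-Δx3,4 BMDMs were LysCre+ hnRNPDfl/fl, in which the myeloid lysozyme promoter drives the recombinase that removes exons 3 and 4. Each group had 3 libraries. All 6 came from C57BL/6J mice and carried the floxed alleles, were differentiated for 10 days in medium conditioned by L929 cells and received 100 ng/ml of lipopolysaccharide (LPS) for 4 hrs, so no level here can be set against unstimulated cells. The deletion and the presence of Cre cannot be told apart. The labels do not say whether the libraries came from separate mice, so p-values measure the spread between libraries, which may be technical.

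In macrophages that meet LPS, Slc7a2 brings arginine into the cell, the inducible synthase encoded by Nos2 turns it into nitric oxide and citrulline, and Gch1 makes the first intermediate of tetrahydrobiopterin, the cofactor that this synthase needs. Ass1 and Asl rebuild arginine from citrulline, whereas the arginases Arg1 and Arg2 split arginine into ornithine and urea. Acod1 works beside this route: it decarboxylates cis-aconitate of the citrate cycle to itaconate, an immunometabolite of activated macrophages.

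Reads were counted over the 3′ ends of transcripts, so AU-rich motifs near these ends lie inside the counted regions. Binding of AUF1 was not measured in these libraries. The search used the letters ATTTA, written with U for T in the RNA, and the longer TTATTTATT on the transcript strand of the GENCODE vM21 sequences (GRCm38, the assembly called mm10). TTATTTATT contains ATTTA. The 3′ untranslated region (UTR) of Nos2 held 3 matches to ATTTA, that of Acod1 held 1, which lies inside its single TTATTTATT, and those of Arg1 and Arg2 held 1 each. There were 7 in Gch1 and 12 in the long form of Slc7a2, whose UTR is 5774 bases long, and none in the UTRs of Ass1 and Asl. Among 11494 transcripts of tested genes, 33.3% had ATTTA in their last 250 bases, as Nos2, Gch1, Arg1 and Arg2 did, and among 9318 transcripts 4.21% had TTATTTATT in their last 1000 bases, as Acod1 did. The windows below show the Acod1 nonamer, the last Nos2 pentamer and the last Gch1 pentamer, with the match in capitals. They lie on chr14:103055748-103055777 (plus strand), chr11:78960185-78960214 (plus strand) and chr14:47153907-47153936 (minus strand).
Acod1: ttctgaggaaTTATTTATTaactctgggaa
Nos2: ttgatgaaaaatATTTAtataaaatacatt
Gch1: actgaaggttctATTTAaatgattaaagtg

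No difference between control and M-Δx3,4 BMDMs beyond the spread of the libraries was detected for any of these genes. Of the 8, 6 had enough counts to be tested in edgeR's quasi-likelihood test, and 0 had an unadjusted p under 0.05, where 3.98% of 11872 tested genes did. The count was also 0 with the DESeq2 Wald test and with limma-voom. In 0 of the 6 were the libraries of the groups separate, against 8.44% of all tested genes. The log2 fold changes of M-Δx3,4 over control ran from -0.35 for Gch1 to 0.46 for Asl, with a median of -0.14 where the median of all tested genes was -0.01. Their unadjusted p ran upward from 0.318, and their adjusted p from 0.984 to 0.998 (edgeR, Benjamini-Hochberg over all transcripts). The exact permutation test of 3 libraries against 3, two-sided, cannot go below p = 0.1, and gave 0.3 to 0.9 for these genes. In bulk RNA, fewer expressing cells and less RNA per cell cannot be told apart.

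**Figure D1:**
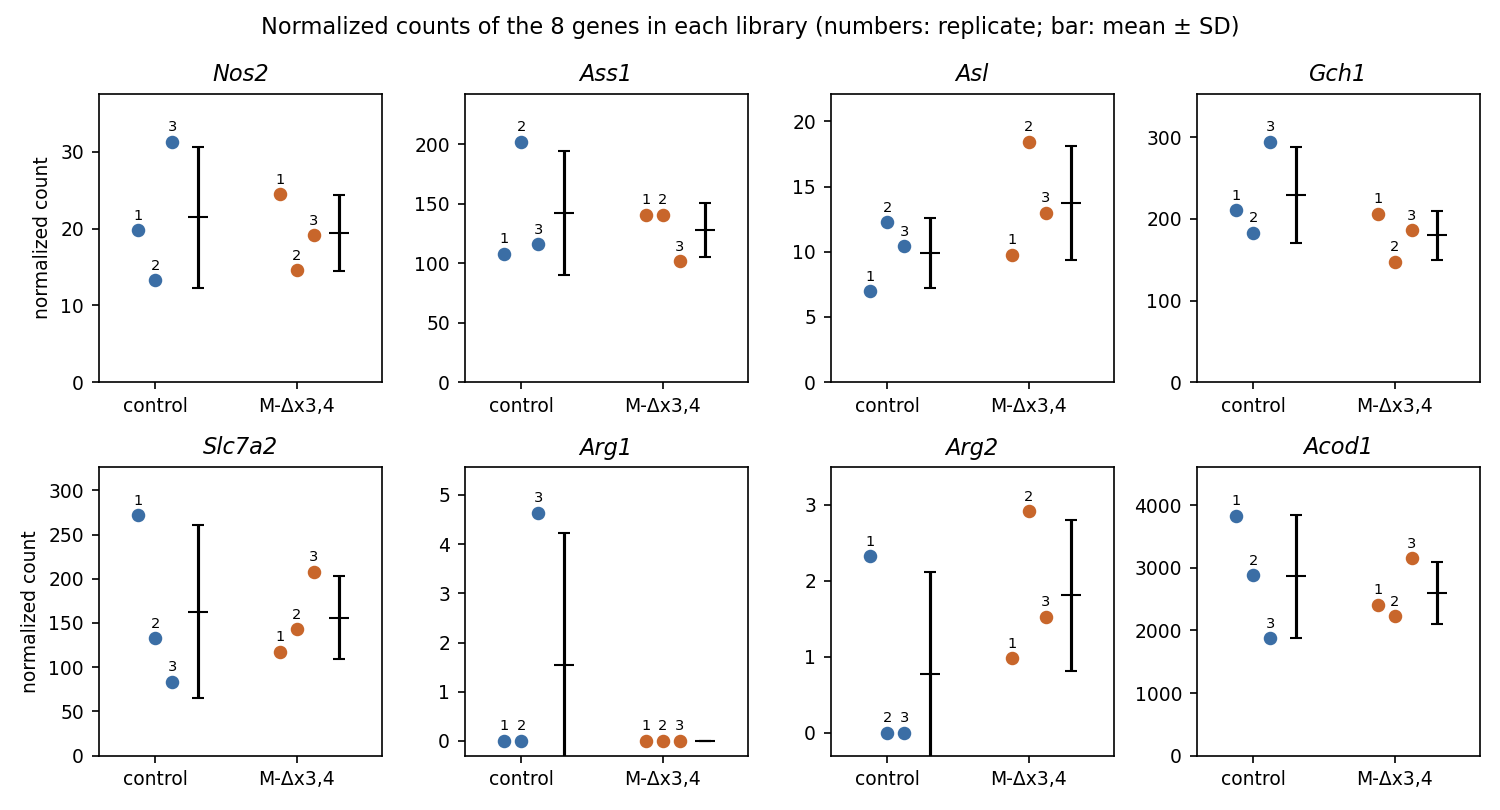
Normalized counts (vertical axis) of each of the 8 genes in the control (blue) and M-Δx3,4 (orange) libraries, numbered by replicate, with the mean and SD of each group at its right. The groups overlap in every panel, and Arg1 and Arg2 stay under 5 normalized counts.

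Counts summed over all transcripts ran from 5852374 to 9008878 per library, with reads in regions shared by several transcripts counted more than once. With 1 transcript per gene they ran from 2503116 to 3846224. The AUF1 transcript p37 separated the groups and was lower with M-Δx3,4 (log2 fold change -2.11, standard error 0.54, unadjusted p = 0.00144, adjusted p = 0.984, edgeR). The most abundant Hnrnpd transcript (ENSMUST00000172361) overlapped between the groups, with control replicate 3 below all M-Δx3,4 libraries (log2 fold change -0.57, unadjusted p = 0.183, edgeR). The 3′-end counts do not show exons 3 and 4. All 8 macrophage markers were detected, with a summed level of 6452 to 7034 normalized counts across the controls and 5413 to 7072 across the M-Δx3,4 libraries. Of these, 1 had an unadjusted p under 0.05 (edgeR): Lyz2, the locus that carries Cre, with a log2 fold change of -0.91. Control replicate 3 stood apart. Its correlation with the other libraries over 4723 genes (log2 counts, across genes) was 0.764 to 0.895, while all other pairs lay between 0.904 and 0.971. It was also the library with transcripts of liver plasma proteins: Alb had 264.5 normalized counts there and at most 1.53 elsewhere, and Apoa1 (40.6) and Ttr (12.8) were at 0 in the other 5 libraries. Hepatocytes express Arg1, Ass1 and Asl strongly, so values without this library are given beside these genes.

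Per length, Acod1 was by far the most abundant of the 8. The TPM values deposited by the authors, scaled by region length, placed it at 225.6, 153 and 98.4 in the control and 139, 119 and 181 in the M-Δx3,4 libraries, rank 454 of 18430 genes with a TPM above 0. Ass1 followed with 15.2 to 28.0 TPM and Gch1 with 4.83 to 9.44 TPM. The ranges of these 3 genes did not overlap, and each was above the next in all 6 libraries. Nos2 (1.28 to 2.85 TPM), Slc7a2 (0.954 to 3.49 TPM) and Asl (0.959 to 2.39 TPM) overlapped one another and are not separated in this order. At the bottom, Arg2 did not exceed 0.398 TPM and Arg1 was listed at 0 TPM in all but 1 library. A 3′-end library gives about as many reads from a short as from a long transcript, and the counted regions ran from 504 bases for Ass1 to 6023 for Slc7a2, so division by length lowers Slc7a2 most.

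The itaconate gene Acod1 (ENSMUST00000022722, counted over chr14:103055509-103056822 on the plus strand, 3′ UTR) had 3829.7, 2880.2 and 1874 normalized counts in the controls, and 2408, 2224 and 3150.0 in the M-Δx3,4 libraries. The control libraries were spread more widely and enclosed all 3 M-Δx3,4 libraries, at 2861 ± 978 against 2594 ± 490.3 (SD, n = 3). The log2 fold change was -0.14 (standard error 0.32, 95% interval -0.83 to 0.55, unadjusted p = 0.668, edgeR), which leaves room for anything from 0.562 to 1.46 times the control level. At this depth counting alone would give a coefficient of variation of 1.97% among the control libraries, and 34.2% was observed. The direction rested on control replicate 1, without which the log2 fold change was 0.13.

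Slc7a2, the inducible arginine transporter CAT2, varied most among the tested genes. Over chr8:40916535-40922557 (ENSMUST00000057784, plus strand, 3′ UTR) it had 272, 133 and 83.5 normalized counts across the controls and 117, 143 and 208 across the M-Δx3,4 libraries. The highest and the lowest library were both controls and differed 3.26-fold, and the group values were 163 ± 97.7 and 156 ± 46.7 (SD, n = 3). The log2 fold change was -0.06 (standard error 0.43, 95% interval -0.97 to 0.85, unadjusted p = 0.892, edgeR). Without control replicate 1 it was 0.53.

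The Slc7a2 region is counted in nested parts, and the 95% intervals of their log2 fold changes overlapped. A shorter region, chr8:40916535-40918305 (ENSMUST00000098816), starts at the same base and belongs to a transcript annotated to end early. This short region cannot separate reads of that transcript from those of longer ones, which are counted there too. It held 14, 16 and 6 raw counts in the controls against 3, 4 and 8 with M-Δx3,4. Normalized, these were 16.3, 16.3 and 6.96 against 2.93, 3.88 and 6.11, so that every M-Δx3,4 library was below every control library, the closest being control replicate 3 and M-Δx3,4 replicate 3. Such a separation of the groups was found for 8.88% of all tested transcripts. The log2 fold change was -1.57 (standard error 0.68, 95% interval -3.01 to -0.13, unadjusted p = 0.0346, adjusted p = 0.984, edgeR). The rest of the long region had 255.7, 116 and 76.6 normalized counts across the controls and 114, 139 and 202 across the M-Δx3,4 libraries, and its log2 fold change was 0.02 (standard error 0.43, 95% interval -0.90 to 0.95, unadjusted p = 0.959).

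Of the counts on the long region, 5.98%, 12.3% and 8.33% lay in the short region in the controls, against 2.50%, 2.72% and 2.94% with M-Δx3,4. The shares did not overlap between the groups (8.87% ± 3.20 against 2.72% ± 0.221, SD, n = 3; two-sided exact permutation test, p = 0.1, the lowest possible). Across 1075 nested regions of 859 genes with at least 20 counts in each part, the shares did not overlap in 9.95%, and were lower in M-Δx3,4 in 5.02%. The single libraries are shallow: the 95% Wilson interval was 7.72% to 19.1% in control replicate 2 and 0.854% to 7.09% in M-Δx3,4 replicate 1, for counting error only. The short region was singled out after its values were seen, because 1 of 8 different sets of counts tested for these genes had an unadjusted p under 0.05, against 4.13% of 32475 transcripts. It lost that p with the DESeq2 Wald test (0.0644) and without control replicate 1 (0.106), control replicate 2 (0.126), M-Δx3,4 replicate 1 (0.0970) or M-Δx3,4 replicate 2 (0.0844).

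**Figure D2:**
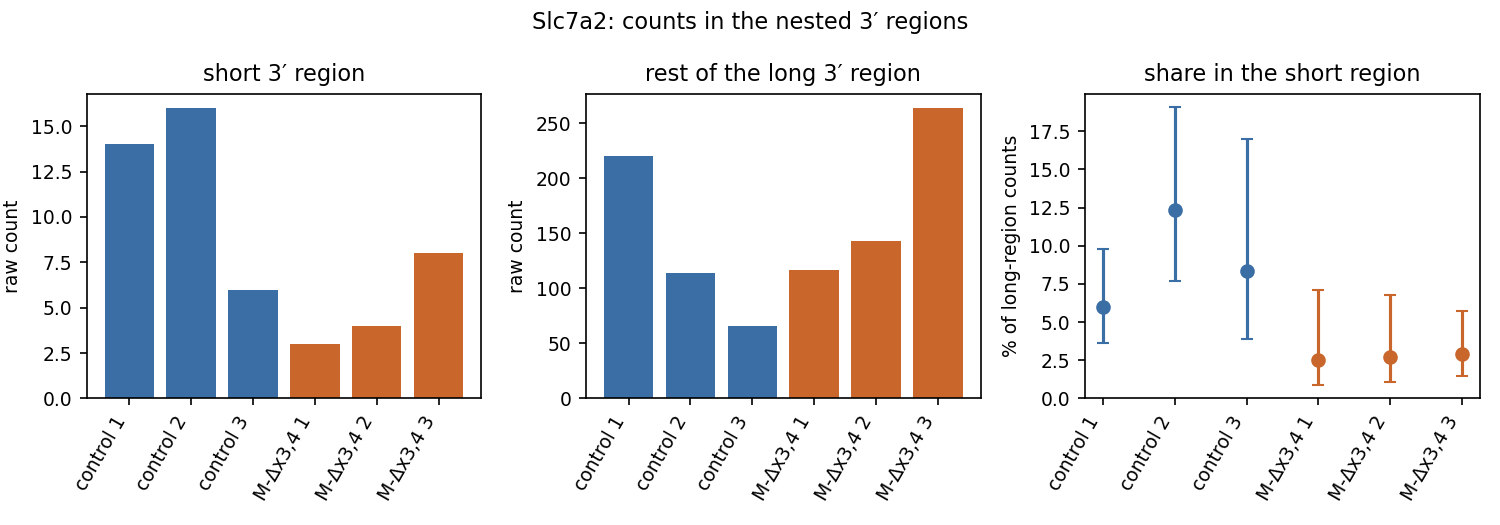
Raw counts on the short 3′ region of Slc7a2 (left) and on the rest of its long 3′ region (middle), and the percentage of the long region's counts that lie in the short region with 95% Wilson intervals (right), by library (control blue, M-Δx3,4 orange). The shares of the control libraries sit between 5.98% and 12.3% and those of the M-Δx3,4 libraries between 2.50% and 2.94%, while the rest of the region overlaps.

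A hexamer of the polyadenylation signal lies at the annotated end of the short form of Slc7a2 and at that of ENSMUST00000117077, a long form, but not at the end of ENSMUST00000057784 (40922308). The windows, with the hexamer in capitals, show where the annotated transcripts end relative to the counted regions. The hexamers AATAAA and ATTAAA were sought in the last 40 bases on the transcript strand, where 65.1% of 11835 transcripts had at least 1 of them. The short form ends at 40918056 and ENSMUST00000117077 at 40922070. The hexamers in capitals start 20 and 21 bases before these ends, in the windows chr8:40918025-40918054 and chr8:40922038-40922067 (plus strand). The short form also has an overlapping AATAAA that starts 16 bases before its end.
Slc7a2 short end: cctttgtatatgATTAAAtaaacttttaaa
Slc7a2 long end: cacgtgtttttaAATAAAccttattatgac
A still shorter counted region (ENSMUST00000118432), which stops at 40917975, held the same counts as the short region in every library. No counted read was thus added between that base and the end of the short region. That stretch holds the annotated short end and its hexamers, and the counts do not tell these short forms apart. Similarly, the region of ENSMUST00000117077, which stops 238 bases before that of ENSMUST00000057784, held all reads of the long region.

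Nos2 itself was weakly detected. Over chr11:78959753-78960503 (ENSMUST00000018610, plus strand, 3′ UTR) it had 17, 13 and 27 raw counts across the controls and 25, 15 and 25 across the M-Δx3,4 libraries. Normalized, these were 19.8, 13.3 and 31.3 against 24.5, 14.6 and 19.1, and the M-Δx3,4 libraries fell within the range of the controls (21.5 ± 9.14 against 19.4 ± 4.95, SD, n = 3). The 95% interval of the log2 fold change (-0.14) was -1.18 to 0.89 in edgeR's fit, or 0.443 to 1.86 times the control level. The direction turned without control replicate 3 (0.24) and without M-Δx3,4 replicate 2 (0.02). A second region that covers only the first 249 bases of the UTR (ENSMUST00000214397) had 9, 1 and 7 counts across the controls and 3, 3 and 9 across the M-Δx3,4 libraries, with an unadjusted p of 0.544.

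Gch1, the rate-limiting step toward tetrahydrobiopterin, was the member with the lowest fold change. It had 210.4, 183 and 295 normalized counts across the controls and 206, 148 and 186 across the M-Δx3,4 libraries (ENSMUST00000089959, chr14:47153646-47155797, minus strand, 3′ UTR). The groups overlapped (229 ± 58.3 against 180.2 ± 29.9, SD, n = 3), with control replicate 3 the highest. The log2 fold change of -0.35 (standard error 0.34, 95% interval -1.06 to 0.37, unadjusted p = 0.318, edgeR) was negative with each library left out in turn, but came to -0.11 without control replicate 3.

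The genes that recycle citrulline, Ass1 and Asl, had log2 fold changes of opposite sign, both within their errors. Ass1 (ENSMUST00000102840, chr2:31520418-31520921, plus strand) had 108, 202 and 116 normalized counts across the controls and 141, 141 and 102 across the M-Δx3,4 libraries. Control replicate 2 was highest and M-Δx3,4 replicate 3 lowest, whereas the other control libraries lay below the other M-Δx3,4 libraries. The log2 fold change was -0.16 (standard error 0.37, 95% interval -0.94 to 0.63, unadjusted p = 0.676, edgeR). Asl (ENSMUST00000161094, chr5:130011009-130011555, minus strand) was low, with 6.97, 12.3 and 10.4 normalized counts across the controls and 9.78, 18.4 and 12.99 across the M-Δx3,4 libraries. Its log2 fold change was 0.46 (standard error 0.56, 95% interval -0.73 to 1.66, unadjusted p = 0.421, edgeR), positive in each fit that left out a library (0.20 to 0.65). Without control replicate 3, the library with liver transcripts, the log2 fold changes were -0.27 for Ass1 and 0.51 for Asl. That of Ass1 turned to 0.19 without control replicate 2.

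Ratios within a library do not depend on the library factors. The log2 ratio of Ass1 to Asl raw counts (0.5 added to each count) was 3.85, 3.99 and 3.40 in control and 3.78, 2.90 and 2.93 in M-Δx3,4 libraries. M-Δx3,4 replicate 1 fell among the controls, and the difference of -0.54 was within the spread (exact permutation test, two-sided, p = 0.2). For Nos2 to Acod1 the log2 ratio was -7.56, -7.71 and -5.88 in control and -6.59, -7.21 and -7.34 in M-Δx3,4 libraries, with group means of -7.05 each (exact permutation test, two-sided, p = 1). Control replicate 3 stood highest, and without it the difference was 0.59.

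The arginases were at the limit of detection. Arg1 (ENSMUST00000020161, chr10:24914972-24915609, minus strand), the cytosolic form that marks alternatively activated macrophages, had 4 raw counts, all in control replicate 3, and 0 in the other 5 libraries, a count that allows a true level of up to 3 counts in each. That is the library in which Alb, Apoa1 and Ttr were found, and whether its Arg1 counts came with those transcripts was not tested. Arg2 (ENSMUST00000021550, chr12:79156032-79156550, plus strand), the mitochondrial form, had 2, 0 and 0 raw counts across the controls and 1, 3 and 2 across the M-Δx3,4 libraries. All 519 bases of its counted region also lie in exons of Vti1b on the opposite strand, and the strand setting of the counting is not given in the sources used here. Neither arginase passed the filter on low counts, and no fold change is given for them.

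**Figure D3:**
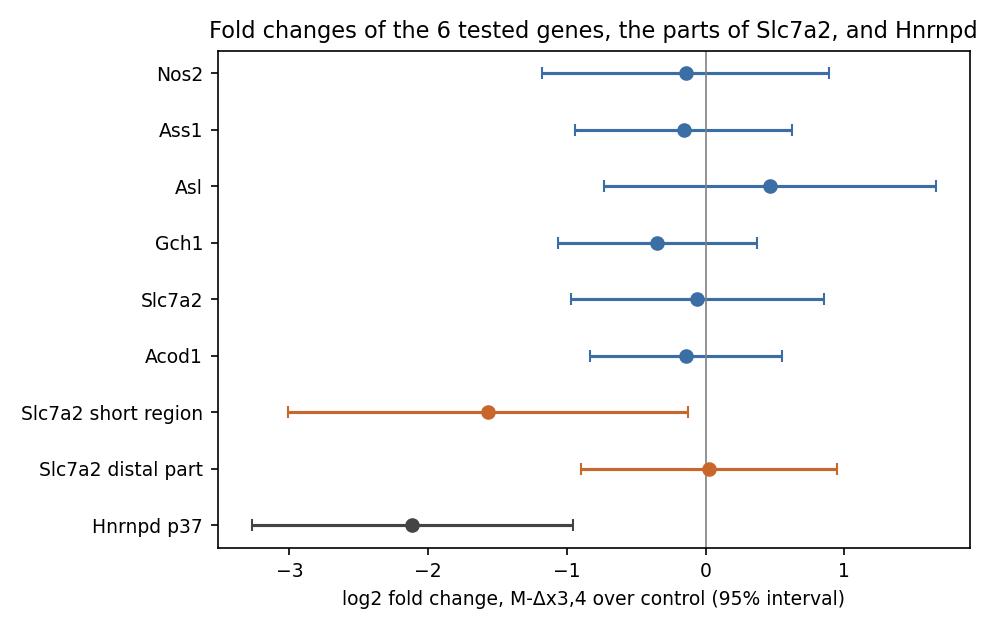
Log2 fold change of M-Δx3,4 over control with its 95% interval (horizontal axis) for the 6 tested genes (blue), the parts of the Slc7a2 region (orange) and the AUF1 transcript p37 (dark). The intervals of the 6 genes include 0, whereas those of the short Slc7a2 region (-3.01 to -0.13) and of p37 (-3.27 to -0.96) do not.

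From library to library, some of these genes had similar patterns. The measure was the root mean square difference between 2 genes' log2(normalized count + 1), each centred on its mean over the 6 libraries. Nos2 and Gch1 differed by 0.20, the smallest value among 15 pairs: both were highest in control replicate 3, at 0.65 and 0.56 above their means. Acod1 and Slc7a2 differed by 0.27, and both were highest in control replicate 1 (0.53 and 0.87) and lowest in control replicate 3 (-0.50 and -0.82). The next pair was Ass1 and Asl at 0.43, and the widest was Nos2 and Slc7a2 at 0.80. Control replicate 3, which stood highest or lowest for these 4 genes, is the same library that stood apart over all genes. Among 4295 other genes whose mean exceeded 50 normalized counts, the closest to Acod1 were Slc25a51 (0.070) and Ric1 (0.070), where the median gene differed by 0.49. The closest were Ahnak (0.090) and Srp9 (0.11) for Slc7a2, Axin1 (0.054) and Hdgf (0.081) for Gch1, and Mcub (0.10) and Cfp (0.11) for Ass1. With 6 libraries such likeness is a description only.

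**Figure D4:**
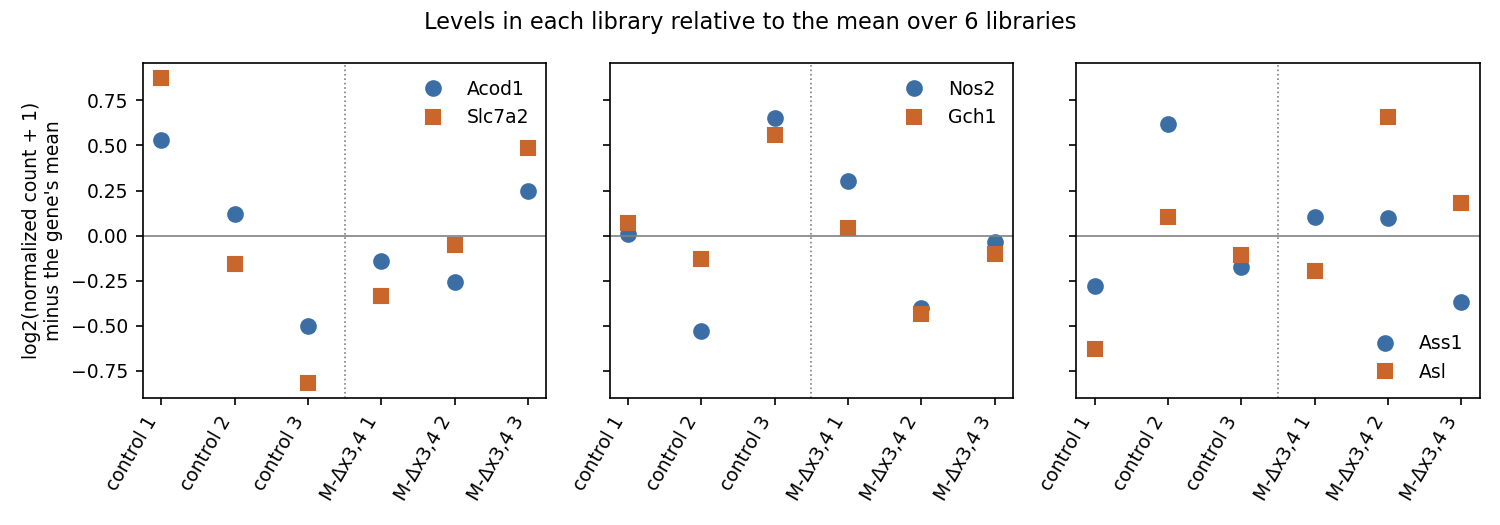
Level of each gene in the 6 libraries as log2(normalized count + 1) minus its mean (vertical axis), for Acod1 and Slc7a2, Nos2 and Gch1, and Ass1 and Asl. The first pair runs from 0.53 and 0.87 in control replicate 1 to -0.50 and -0.82 in control replicate 3, and the second pair is highest in control replicate 3.

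The genes around the branch point were followed in 7 lists of 71 genes, of which 58 could be tested. By edgeR's unadjusted p, 2 rose, 0 fell and the others did not pass, where 3.98% of all tested genes passed. After adjustment 0 of the 58 had a p under 0.05, and so did 0 of all 11872 tested genes. The log2 fold changes of the 58 had a median of -0.13, with 21 positive and 37 negative. Among all tested genes 49.5% were positive and the median was -0.01, and no set test was run. In 5 of the 58 the groups did not overlap, against 8.44% of all tested genes.

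Of 5 other arginine transport genes, 0 passed the test and all 5 log2 fold changes were negative (-0.48 to -0.01, median -0.17). Slc7a1, the constitutive transporter CAT1, had 337.1, 337.2 and 283 normalized counts across the controls and 197, 312 and 342 across the M-Δx3,4 libraries, with overlapping groups. Slc3a2, the heavy chain shared by several amino acid transporters, had 172 in control replicate 3 and 57.2 to 82.2 in the other 5 libraries. Among the other nitric oxide synthases and their modulators 3 of 10 could be tested and 0 passed, with a median of 0.01. Nosip, which binds nitric oxide synthases, had a log2 fold change of -0.38 and Ddah2, which degrades methylated arginines, of 0.27. The synthases Nos1 and Nos3 had totals of 2 and 8 raw counts summed over the 6 libraries, and Nos1 was seen only in M-Δx3,4 replicate 1.

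Of the tetrahydrobiopterin genes downstream of Gch1, 4 of 6 could be tested and 0 passed, with a median of -0.13. Qdpr, which recycles the cofactor, had 351, 357 and 321 normalized counts across the controls and 445, 458 and 358 across the M-Δx3,4 libraries. Its groups did not overlap, the closest values being 357 and 358, but its log2 fold change was 0.29 with an unadjusted p of 0.345 (edgeR). Spr, the last enzyme of the synthesis, had a log2 fold change of -0.63 and Pts, the middle one, of 0.77, both with overlapping groups.

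Past the arginases, 12 of 15 ornithine, polyamine and proline genes could be tested, with a median of -0.03, and 1 rose. Amd1, which makes the aminopropyl donor of polyamine synthesis, had 399.8, 167 and 160.1 normalized counts across the controls and 413, 370.0 and 510.5 across the M-Δx3,4 libraries. Control replicate 1 reached the M-Δx3,4 level, so the groups overlapped, and the log2 fold change was 0.83 (standard error 0.38, unadjusted p = 0.0465, adjusted p = 0.984, edgeR). It was 1.40 without control replicate 1 and lost its p under 0.05 when any other library was left out (0.62 to 0.93). Sat1, which acetylates polyamines, and Oaz1, the ornithine decarboxylase antizyme, were the most abundant of the list, at log2 fold changes of 0.33 and -0.06. Odc1, which turns ornithine into putrescine, was at 419 ± 75.3 normalized counts in the controls against 350.3 ± 83.9 with M-Δx3,4 (SD, n = 3), and the groups overlapped.

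Around itaconate, 21 of 22 genes listed for citrate, isocitrate and succinate could be tested and 0 passed, with a median of -0.09. Sdhc, a membrane subunit of succinate dehydrogenase, the enzyme that itaconate inhibits, had 438, 466 and 479 normalized counts across the controls and 375, 278 and 399.7 across the M-Δx3,4 libraries, without overlap, at a log2 fold change of -0.39 and an unadjusted p of 0.217 (edgeR). The subunit gene Sdhb was at -0.54, Sdhd at -0.09 and Sdha at 0.15, each with overlapping groups. Mdh2, the most abundant of the list, was at 0.23. Aco1, which also acts as an iron-responsive RNA-binding protein, was at -0.96 with an unadjusted p of 0.0531 (edgeR).

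Of 7 transcription factors that act on Nos2 and Acod1, 0 passed, 5 log2 fold changes were negative and the median was -0.35. Irf1, an interferon-response factor needed for Nos2 induction, had 2492, 3015 and 3002 normalized counts across the controls and 1889, 2323 and 2113 across the M-Δx3,4 libraries. Every M-Δx3,4 library was below every control library, but the log2 fold change of -0.43 had an unadjusted p of 0.151 (edgeR) and an interval of -1.03 to 0.18. Irf8 was at -0.35 and Rela at -0.44. Among 6 RNA-binding proteins known from Nos2 mRNA the median was -0.39, with Hnrnpd itself counted by its most abundant transcript (-0.57), and 1 rose. Elavl1 (HuR), which stabilizes AU-rich mRNAs, had 164, 166 and 244 normalized counts across the controls and 331, 336 and 299 across the M-Δx3,4 libraries (log2 fold change 0.75, unadjusted p = 0.0341, edgeR). With a library left out it kept its unadjusted p under 0.05 only without control replicate 3. Khsrp (KSRP), which promotes decay of such mRNAs, had 27.9, 21.5 and 19.7 against 9.78, 13.6 and 17.6 normalized counts, without overlap, at a log2 fold change of -0.74 and an unadjusted p of 0.141. Zfp36 (tristetraprolin) was at -0.37 with overlapping groups.

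**Figure D5:**
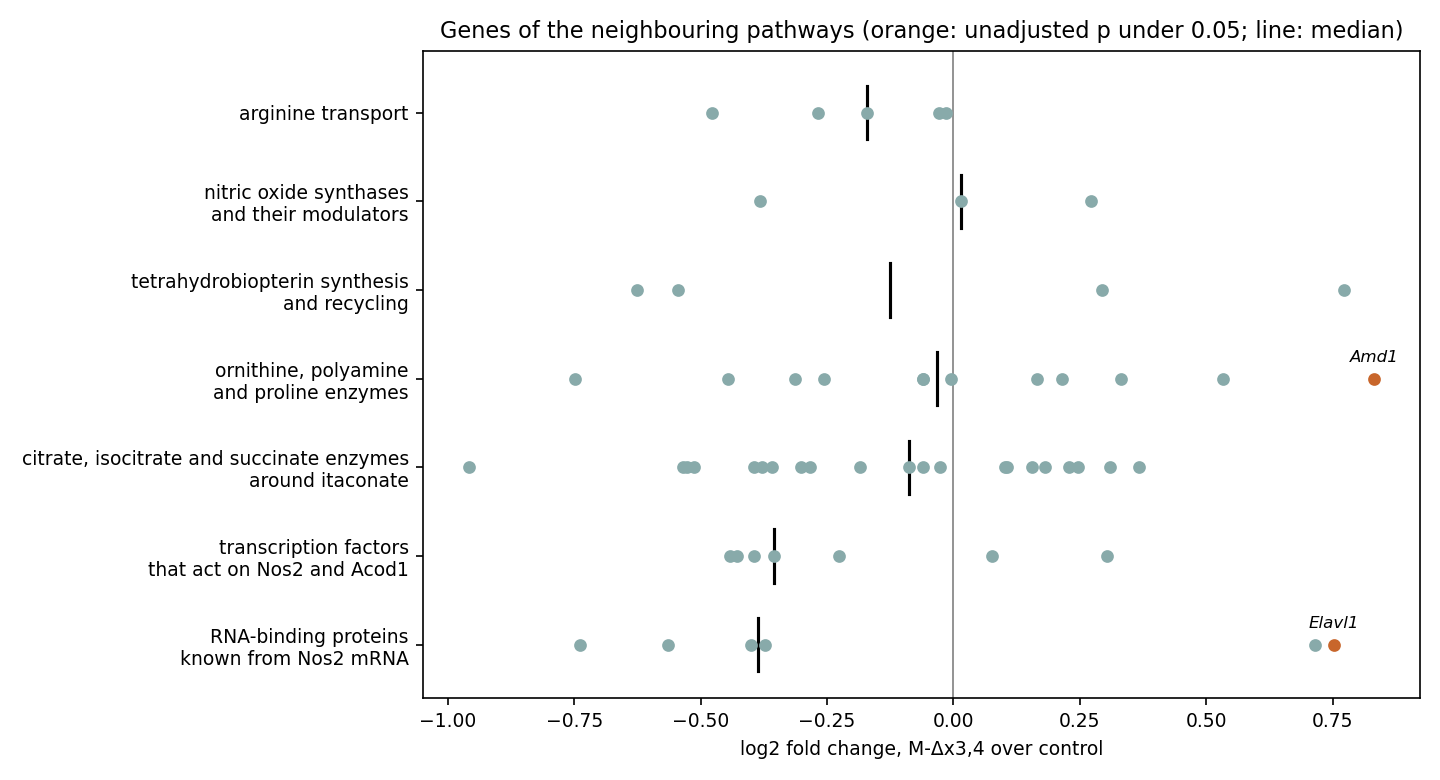
Log2 fold change of M-Δx3,4 over control (horizontal axis) of the 58 tested genes in 7 lists, with the median of each list as a line and genes with an unadjusted p under 0.05 in orange. Amd1 (0.83) and Elavl1 (0.75) are the 2 genes in orange, and each list but that of the arginine transporters has values on both sides of 0.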

How the data were processed

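RNA from BMDMs was sequenced from the 3′ ends (QuantSeq, Ion Torrent). The authors aligned reads to mm10 (TopHat2 2.1.1, then Bowtie2) and used metaseqR2 to count them over 3′ UTR regions. From the deposited tables, raw counts (not normalized) and TPM values, both made by the authors, were taken. Their own comparison (fold changes and p-values) was left aside, as were 18 other per-sample columns. Counted regions of the genes followed ended 249 bases past the 3′ end in GENCODE vM21.

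Regions of a transcript were summed (142567 transcripts) and each gene was represented by its transcript of highest mean count. Library factors followed the RLE method. Transcripts above the median normalized count (4.89) in 1 library or more were tested. The groups were compared with edgeR 4.0.16 (quasi-likelihood F test, R 4.3.3) and p-values adjusted by Benjamini-Hochberg over all 32475 transcripts. Of these, 1071 passed the study's cut-offs (unadjusted p under 0.05 and absolute log2 fold change of at least 1), applied here to edgeR's p. The study applied them to a p combined from several methods, so the numbers cannot be compared. Transcripts of a gene with the same counts were each included. Intervals (95%) come from the standard error and its degrees of freedom. Single values had exact permutation tests (scipy 1.17.1). The procedure was tested on simulated counts of 1 transcript per gene, with large changes in well-counted genes. Changes as small as those of the 6 tested members, or in genes as low as Asl, were not simulated. Counts carry no molecular identifiers, so the floor of 3 counts and Wilson intervals cover counting error only.

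Genes named are the 8 members, genes of 7 pathway lists with an unadjusted p under 0.05, the pair with the highest mean of each list, and the pair of genes most like each member with a mean above 50 normalized counts. The members, lists and markers were chosen with earlier results of these data known. Pts, Sdhc, Sdhd, Sdha, Aco1, Odc1, Rela, Khsrp, Nos1 and Nos3 were named after their values were seen. Besides macrophage and hepatocyte markers, summed marker levels were 377 to 710 normalized counts for neutrophils, 50.4 to 107 for B cells and 5.80 to 37.2 for T cells. They were at most 5.11 for dendritic cells, 3.07 for mast cells and basophils, 32.5 for fibroblasts and 32.5 for erythroid cells. The group ranges overlapped. The T cell sum came from Cd3d alone, with Cd3e, Cd3g and Trac at 0 in every library. The neutrophil sum came from S100a8, S100a9, Camp and Ngp, whereas Ly6g, Elane and Mpo did not exceed 1.16 normalized counts.

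Alternatives were TMM, library totals only, DESeq2 1.42.0, limma-voom (limma 3.58.1), no filter, filterByExpr, at least 10 counts in every library, 1 transcript per gene, merged regions, the replicate number as a block, a threshold of 0.01, a pseudocount of 1 for ratios, and each library left out in turn. No batch is named in the labels.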

Additional observations from a re-analysis of the deposited data

How the results depend on the processing

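Of the 6 tested genes, 0 had an unadjusted p under 0.05 under every alternative run and at a threshold of 0.01. Asl could not be tested at a minimum of 10 counts. Asl and Gch1 kept their direction throughout, and the other 4 did not. Nos2 reached 0.24 without control replicate 3 and 0.02 without M-Δx3,4 replicate 2, Acod1 0.13 without control replicate 1, and Ass1 0.19 without control replicate 2. Slc7a2 was at 0.53 without control replicate 1, 0.10 without M-Δx3,4 replicate 1 and 0.076 with limma-voom. With a library left out, the log2 fold changes ran from -0.40 to 0.24 for Nos2, -0.36 to 0.13 for Acod1, -0.32 to 0.19 for Ass1, 0.20 to 0.65 for Asl, -0.49 to -0.11 for Gch1, -0.36 to 0.53 for Slc7a2 and -3.02 to -1.69 for p37. The ratio of Nos2 to Acod1 ran from -0.33 to 0.59 and that of Ass1 to Asl from -0.83 to -0.39. The cause of these shifts was not tested.

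The short Slc7a2 region stayed lower (-1.92 to -1.37 with a library left out). It was at -1.60 with the DESeq2 Wald test, past 0.05, and could not be tested at a minimum of 10 counts, with filterByExpr or with 1 transcript per gene. Its share of counts differed by -7.60 to -4.44 percentage points with a library left out. The distal part reversed to -0.13 without control replicate 2, -0.28 without control replicate 3 and -0.24 without M-Δx3,4 replicate 3.

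Of the same-numbered libraries, those numbered 2 deviated together and the others did not (correlations across 4723 genes of -0.21, 0.54 and -0.31), so the numbers were not taken as pairs. Control replicate 1 also correlated with M-Δx3,4 replicate 3 (0.54) and control replicate 3 with M-Δx3,4 replicate 1 (0.28). With the replicate block Slc7a2 was at 0.064 and the short region at -1.53 with an unadjusted p of 0.0697 (edgeR). In that fit 685 transcripts passed the study's cut-offs, applied here to the p of a single method. That number was 1071 in the main comparison, 1715 with no filter, 471 with filterByExpr, 265 at a minimum of 10 counts, 365 with 1 transcript per gene, 349 with merged regions, 704 with the DESeq2 Wald test, and 710 to 3224 with a library left out (3224 without control replicate 1). Among the controls, counting alone would give a coefficient of variation of 22.9% for Nos2 and 33.3% for Asl, where 42.6% and 27.2% were observed.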
